A study of Homo sapiens with 24 samples.

Results

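The genes described here form the core of the ATF4 and CHOP stress response. They are the transcription factor genes ATF4, ATF5, ATF3, CEBPB, CEBPG and DDIT3, which encodes CHOP, and the target genes TRIB3, CHAC1, SESN2 and PPP1R15A. They were picked by gene name from a table of 58735 genes, and all 10 were found. RNA was sequenced from Sem and Nalm6, both established human cell lines derived from B cell precursor acute lymphoblastic leukaemia, and Sem has a KMT2A rearrangement. Each line received a combination of ibrutinib and asparaginase, asparaginase alone, ibrutinib alone, or no drug, which made 8 groups with 3 libraries each. Ibrutinib, which blocks the kinase BTK of the B cell receptor pathway, was used at 10 µM, and all drug exposures lasted 24 h. Asparaginase, an enzyme that breaks down asparagine outside the cell, was given as 1 IU/ml by the sample labels and as 0.5 IU/ml by the treatment text. No harvest time was given for untreated cells. Nothing says that the 3 libraries of a group came from separate cultures, so the p-values measure the spread between libraries, and that spread may be technical.

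When amino acids run short, the kinase GCN2 (gene EIF2AK4) phosphorylates the translation factor eIF2, as the kinase PERK (EIF2AK3) does when proteins misfold in the endoplasmic reticulum. General translation then slows, while the ATF4 messenger is translated more, because its short upstream reading frames hold it back in unstressed cells. ATF4 protein pairs with C/EBP factors and raises a programme of amino acid supply and stress genes, among them DDIT3, which can turn the response towards cell death. Much of the control of ATF4 and ATF5 lies in translation, and the libraries hold RNA only.

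ATF4 and its C/EBP partners are known to bind the C/EBP-ATF response element, searched here as TGATGNAA, and dimers of the ATF family bind the cAMP response element TGACGTCA. Both motifs and the CCAAT box were looked for on both strands in the 250 bases before each start of the 10 genes in RefSeq (GRCh38.p14), 19 windows in all. TGATGNAA occurred in 3 of the 10 genes, and 3.89% of all 27305 gene symbols held it in such a window (3.14% of 35116 windows). TGACGTCA occurred in 1 of the 10 genes and in 2.03% of symbols (1.65% of windows). CCAAT occurred in 6 of the 10 genes (ATF3, CEBPB, CEBPG, DDIT3, CHAC1 and SESN2) and in 37% of symbols (32% of windows), and no matches of different motifs overlapped in these genes. The 4 response element sites are printed because they are the only matches to either element in these windows, with the matched letters in capitals. In ATF3 the match begins 191 bases before the start (site at chr1:212565205-212565234, plus strand). In CEBPG it begins 42 bases before a second start (chr19:33374060-33374089, plus strand), and in PPP1R15A 58 bases before the start (chr19:48872352-48872381, plus strand). In CHAC1 it begins 209 bases before the start and reads on the opposite strand, so the capitals show its reverse complement (chr15:40953251-40953280, plus strand shown). The CHAC1 site lies within an exon of the GENCODE annotation.
ATF3: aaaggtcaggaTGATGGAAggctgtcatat
CEBPG: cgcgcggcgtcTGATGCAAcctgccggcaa
CHAC1: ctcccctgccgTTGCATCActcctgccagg
PPP1R15A: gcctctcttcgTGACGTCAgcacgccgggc
A match is a description of letters and not evidence of binding. The absence of these letters in the windows of the other genes says nothing of sites elsewhere.

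The libraries held 15032908 to 18136272 reads assigned to genes (median 16208834). Levels are in FPKM, a read count scaled by gene length and library size, here with a further factor per library (0.919 to 1.093) that differed between groups. For a gene of 1 kb, a single read equalled 0.0601 FPKM in the median library. The 10 genes were measured well above that floor, and 239 of their 240 values were at least 1 FPKM. All 10 could therefore be tested without regard to which group was high. The deposited table had lost the decimal point of every such value, and the decimal place was restored from whole read counts. For 5 of the 240 values the restored place had a posterior probability under 0.99: DDIT3 in Nalm6 ibrutinib 3 and asparaginase 1, and CHAC1 in the 3 untreated Nalm6 libraries. Of 10 markers of B cell precursors, 8 were expressed in Sem (summed level 550 to 816 FPKM, DNTT and RAG1 not among them) and 10 in Nalm6 (1.93e+03 to 2.93e+03 FPKM). Of 6 myeloid markers, 2 were expressed in Sem (LYZ and CSF1R) and 1 in Nalm6 (LYZ), with ELANE and FCGR3B at 0. Of 6 T and NK cell markers, NKG7 alone was expressed in each line, with CD3D, CD3E and KLRD1 at 0, and of 6 erythroid and stromal markers 0 were expressed in Sem and 1 (PDGFRA) in Nalm6. A library was said to stand apart if the other 2 of its group correlated by more than 0.002 above its highest r with them. In Nalm6, 1 library stood apart so among combination (number 1, r of 0.9788 against 0.9861), asparaginase (number 1, 0.9833 against 0.9864) and untreated (number 2, 0.9852 against 0.9883) libraries. These gaps are small.

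On GRCh38 the factor genes lie on chromosome 22 (ATF4, ENSG00000128272, 39519695 to 39522685, plus strand), 19 (ATF5, ENSG00000169136, 49928702 to 49933935, plus strand), 1 (ATF3, ENSG00000162772, 212565334 to 212620777, plus strand), 20 (CEBPB, ENSG00000172216, 50190734 to 50192689, plus strand), 19 (CEBPG, ENSG00000153879, 33373330 to 33382686, plus strand) and 12 (DDIT3, ENSG00000175197, 57516588 to 57521737, minus strand). The target genes lie on chromosome 20 (TRIB3, ENSG00000101255, 362835 to 397559, plus strand), 15 (CHAC1, ENSG00000128965, 40952962 to 40956519, plus strand), 1 (SESN2, ENSG00000130766, 28259527 to 28282491, plus strand) and 19 (PPP1R15A, ENSG00000087074, 48872392 to 48876057, plus strand). Whether the counting used strand was not stated, so reads in exons shared with another gene cannot be assigned. ATF5 shares 626 exon bases with NUP62 on the opposite strand, CEBPB shares 231 with CEBPB-AS1 on the opposite strand, and DDIT3 shares 355 with MARS and 58 with MBD6. The level of NUP62 was 23.5 FPKM with asparaginase and 27.7 FPKM without a drug in Sem, and 10.2 and 25.4 FPKM in Nalm6. CEBPB-AS1 had 3.35 FPKM with asparaginase and 1.42 FPKM without a drug in Sem, and 4.95 and 1.14 FPKM in Nalm6. It thus moved with CEBPB, and reads in the 231 shared bases, of 1956 exon bases of CEBPB, cannot be told apart. MARS had 51.5 FPKM with asparaginase and 29.4 FPKM without a drug in Sem, and 42.9 and 37.8 FPKM in Nalm6, and MBD6 had 12.4 and 9.88 FPKM in Sem and 16.9 and 8.83 FPKM in Nalm6. What part these overlapping genes had in the values of ATF5, CEBPB and DDIT3 was not tested.

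**Figure D1:**
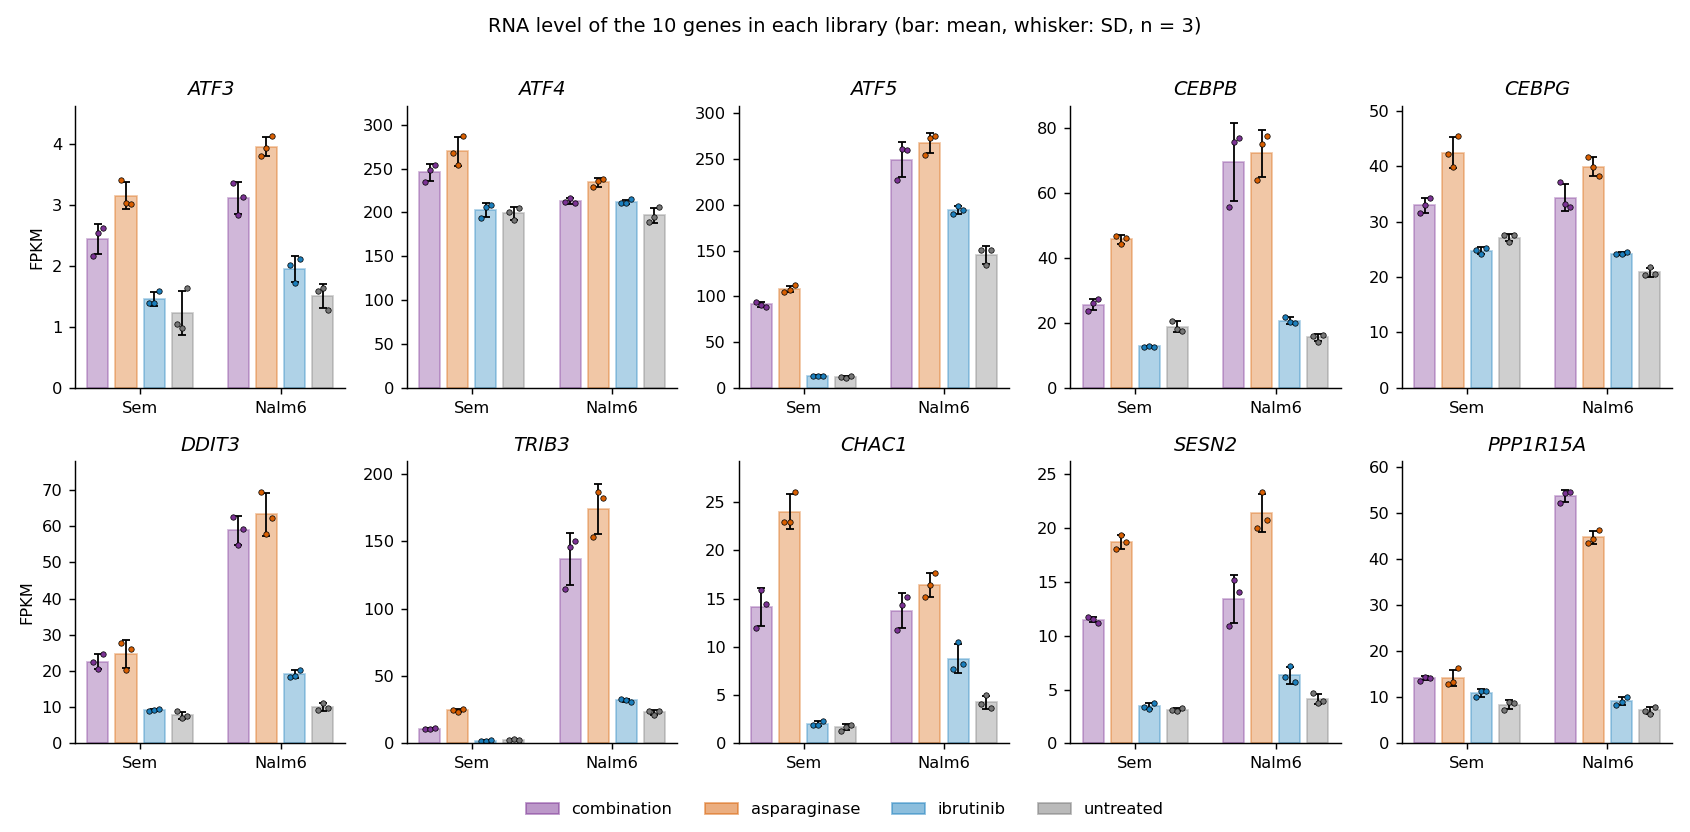
RNA level in FPKM (y axis, linear from 0) of each of the 10 genes in the 4 groups of Sem (left) and Nalm6 (right), with points for the 3 libraries, bars for the mean and whiskers for the SD. The 2 groups with asparaginase have higher means than the untreated group for every gene in both lines, and ATF5 and TRIB3 are far lower in Sem than in Nalm6 (11.9 against 146 FPKM and 2.6 against 23 FPKM in untreated cells).

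The 10 genes started from different levels, and only some of them started alike in the lines. Per length of gene, untreated ATF4 was the most abundant of the 10 in Sem (199 ± 7.23 FPKM, SD, n = 3), and ATF4 and ATF5 were in Nalm6 (197 ± 8.3 and 146 ± 9.68 FPKM). ATF3 was the least abundant in both (1.23 ± 0.362 FPKM in untreated Sem and 1.5 ± 0.197 FPKM in untreated Nalm6). Of the 10 genes, 2 were higher and 5 lower in untreated Sem than in untreated Nalm6 by limma on log2(FPKM + 1), while 34% of all 15116 genes tested were higher and 31.8% lower (65.8% called in all, at an adjusted p under 0.05). The share called in either direction was thus near that of all genes.

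ATF5, a close relative of ATF4, had 12.2, 11.1 and 12.6 FPKM in untreated Sem, against 151, 134 and 151 FPKM in untreated Nalm6 (log2 difference -3.5 ± 0.0567, SE, limma adjusted p = 5.01e-21). TRIB3, a pseudokinase that binds ATF4 and CHOP and restrains them, had 2.54, 3.1 and 2.15 FPKM in untreated Sem, against 24.2, 20.8 and 24 FPKM in untreated Nalm6 (-2.74 ± 0.115, limma adjusted p = 3.58e-14). Both genes were several times lower in every untreated Sem library than in any untreated Nalm6 library. CHAC1, an enzyme that degrades glutathione, had 1.31, 1.71 and 1.92 FPKM in untreated Sem, against 4.04, 4.98 and 3.7 FPKM in untreated Nalm6 (-0.98 ± 0.126, limma adjusted p = 9.63e-07). The differences of DDIT3 (-0.34) and SESN2 (-0.3) were small. CEBPG, a C/EBP factor that pairs with ATF4, was higher in Sem, at 27.1 ± 0.665 FPKM in untreated Sem and 20.8 ± 0.802 FPKM in untreated Nalm6 (0.36 ± 0.0507, limma adjusted p = 2.97e-06), as was CEBPB (0.26). ATF4 itself (0.02), ATF3 (-0.18) and PPP1R15A (0.2, adjusted p = 0.0513) did not pass, and their groups overlapped. The limma call of CEBPB was lost without untreated Sem 1 or untreated Nalm6 2 (adjusted p = 0.12 to 0.138), that of DDIT3 without untreated Sem 2 or untreated Nalm6 2 (0.0507 to 0.0508) and with its next most likely decimal place (0.505), and that of SESN2 without untreated Nalm6 1 (0.0583). PPP1R15A passed in 7 and ATF3 in 2 of 24 fits that left out 1 library (limma adjusted p from 0.00841 and 0.00327), ATF3 without untreated 3 of either line. With the next most likely decimal place the CHAC1 difference was -1.99.

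The design next asks what asparaginase did. In Sem it raised all 10 genes, where 11.4% of the 13417 genes tested rose (26.4% called in all), with a median log2 change of 1.4 for the 10 genes and -0.0036 for all genes tested. CHAC1, ATF5 and TRIB3 ranked 2, 3 and 4 among all genes by size of rise, and SESN2 ranked 9. Fewer cells that express a gene and less RNA per cell cannot be told apart in bulk libraries, here or below.

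Among the factors in Sem, ATF5 had 105, 107 and 112 FPKM with asparaginase, against 12.2, 11.1 and 12.6 FPKM in untreated cells (3.08 ± 0.0452, limma adjusted p = 1.21e-11). Its treated mean was 9.05 times the untreated mean and still lay below that of untreated Nalm6. CEBPB, a C/EBP factor induced in many stress and inflammatory responses, had 46.8, 44.1 and 46 FPKM with asparaginase, against 20.7, 18.1 and 17.5 FPKM in untreated Sem (1.24 ± 0.0627, limma adjusted p = 1.93e-07). DDIT3 had 27.8, 20.4 and 26.1 FPKM with asparaginase, against 8.84, 6.9 and 7.6 FPKM in untreated Sem (1.55 ± 0.11, limma adjusted p = 3.6e-06), so its lowest treated library was still more than double the highest untreated one. ATF3, a stress factor that ATF4 induces, had 3.41, 3.03 and 3.02 FPKM with asparaginase, against 1.05, 0.99 and 1.64 FPKM in untreated Sem (0.91 ± 0.109, limma adjusted p = 0.00015). ATF4 RNA itself rose least among the factors. It had 268, 254 and 287 FPKM with asparaginase, against 201, 191 and 205 FPKM in untreated Sem. The log2 change of 0.44 ± 0.0522 (limma adjusted p = 0.000152) still ranked 609 by size of rise among the 13417 genes tested. CEBPG rose by 0.63. The asparaginase and untreated libraries lay furthest apart for ATF5, and those of ATF4 were closer but did not overlap.

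Among the targets in Sem, CHAC1 had 23, 22.9 and 26.1 FPKM with asparaginase, against 1.31, 1.71 and 1.92 FPKM in untreated cells (3.24 ± 0.109, limma adjusted p = 8.29e-09), a ratio of means of 14.6. TRIB3 had 25, 22.9 and 25.3 FPKM with asparaginase, against 2.54, 3.1 and 2.15 FPKM in untreated Sem (2.83 ± 0.111, limma adjusted p = 2.39e-08), and this treated group overlapped untreated Nalm6. SESN2, a leucine sensor that restrains the growth kinase mTORC1, had 18.1, 19.4 and 18.7 FPKM with asparaginase, against 3.07, 3.02 and 3.28 FPKM in untreated Sem (2.26 ± 0.05, limma adjusted p = 3.45e-10). All 3 genes had untreated libraries far below every treated one. PPP1R15A, also called GADD34, brings a phosphatase to eIF2 and so restarts translation. It had 12.9, 13.4 and 16.3 FPKM with asparaginase, against 7.24, 9.03 and 8.82 FPKM in untreated Sem (0.7 ± 0.0926, limma adjusted p = 0.000296), the smallest change among the 4 targets.

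In Nalm6 asparaginase also raised all 10 genes, where 28.2% of the 13237 genes tested rose (56.3% called in all), with a median log2 change of 1.94 for the 10 genes and 0.021 for all genes tested. TRIB3, DDIT3 and PPP1R15A ranked 3, 4 and 5 among all genes by size of rise, and CEBPB and SESN2 ranked 13 and 14. The order of the genes thus was not that of Sem, and ATF5, the gene ranked 3 in Sem, ranked 500 in Nalm6.

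DDIT3 had 69.6, 57.9 and 62.4 FPKM with asparaginase, against 9.22, 11.2 and 9.77 FPKM in untreated Nalm6 (2.54 ± 0.0854, limma adjusted p = 4.77e-09). CEBPB had 63.9, 75.1 and 77.4 FPKM with asparaginase, against 16.1, 14.2 and 16.2 FPKM in untreated Nalm6 (2.14 ± 0.116, limma adjusted p = 1.21e-07). Both factors had higher means in the 2 Nalm6 groups with asparaginase than in any other group. ATF5 had 255, 273 and 275 FPKM with asparaginase, against 151, 134 and 151 FPKM in untreated Nalm6 (0.88 ± 0.0665, limma adjusted p = 1.24e-06), a ratio of means of 1.84. ATF3 (0.99) and CEBPG (0.9) rose by about as much on the scale of log2(FPKM + 1), while their ratios of means were 2.64 and 1.91. ATF4 had 229, 236 and 238 FPKM with asparaginase, against 189, 195 and 206 FPKM in untreated Nalm6 (0.25 ± 0.0418, limma adjusted p = 0.000379), and ranked 3918 among all genes.

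TRIB3 had 153, 187 and 182 FPKM with asparaginase, against 24.2, 20.8 and 24 FPKM in untreated Nalm6 (2.86 ± 0.108, limma adjusted p = 1.06e-08). PPP1R15A had 43.5, 44.5 and 46.3 FPKM with asparaginase, against 7.02, 6.42 and 7.98 FPKM in untreated Nalm6 (2.5 ± 0.0747, limma adjusted p = 2.74e-09). The rise of PPP1R15A to 6.27 times the untreated mean stands against 1.7 times in Sem. SESN2 had 20, 23.4 and 20.8 FPKM with asparaginase, against 4.64, 3.79 and 3.89 FPKM in untreated Nalm6 (2.13 ± 0.12, limma adjusted p = 1.5e-07). CHAC1 had 15.2, 16.4 and 17.7 FPKM with asparaginase, against 4.04, 4.98 and 3.7 FPKM in untreated Nalm6 (1.74 ± 0.128, limma adjusted p = 9.78e-07). With the next most likely decimal place for CHAC1, 1150 in place of 115 reads in untreated 3, its change was 0.74 and did not pass. The libraries of the 2 groups lay far apart for TRIB3, PPP1R15A and SESN2.

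**Figure D2:**
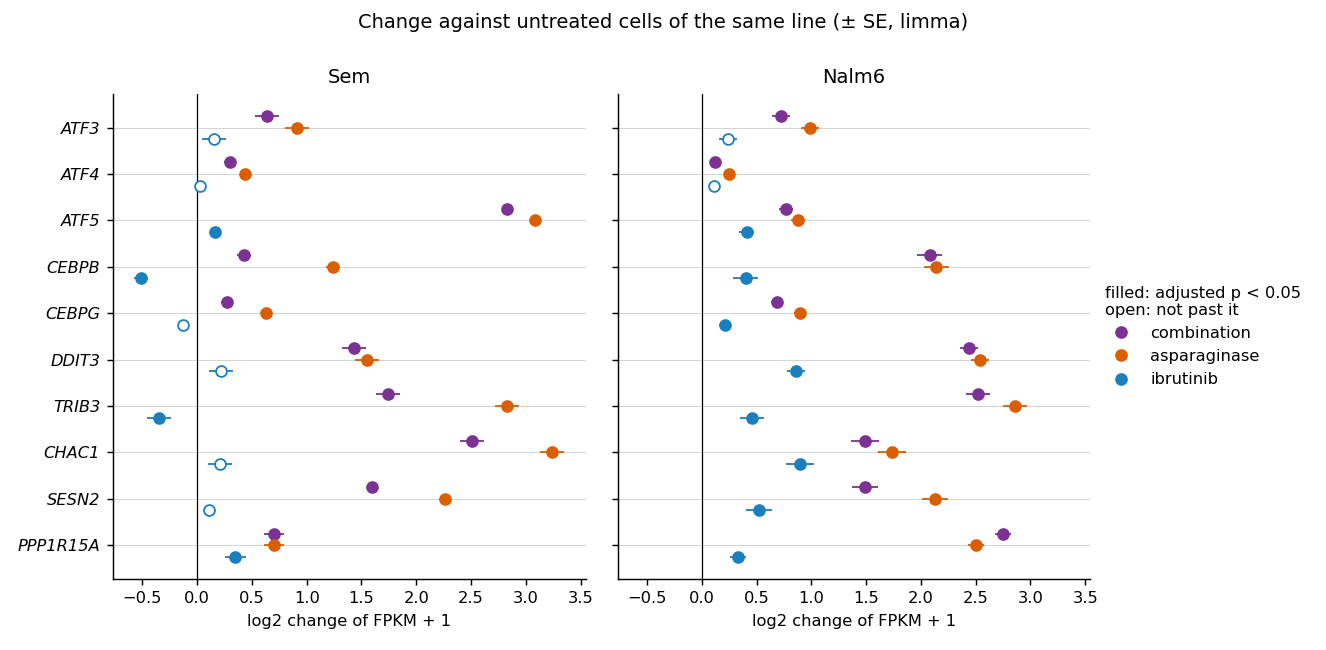
Fitted change in log2(FPKM + 1) against untreated cells (x axis, ± SE, limma) for each of the 10 genes (y axis), with the combination, asparaginase and ibrutinib in Sem (left) and Nalm6 (right); filled points passed an adjusted p of 0.05. All 10 genes lie right of 0 with asparaginase and with the combination in both lines, while ibrutinib alone lies between -0.51 and 0.35 in Sem and between 0.11 and 0.9 in Nalm6.

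The next question is what ibrutinib alone did, and here the lines parted. In Sem, 2 of the 10 genes rose and 2 fell, where 20.3% of 13417 genes rose and 21.3% fell (41.5% called in all), with a median of 0.13 for the 10 genes and 0.011 for all genes tested. Those counts were near the shares of all genes. CEBPB had 12.6, 13 and 12.7 FPKM with ibrutinib, against 20.7, 18.1 and 17.5 FPKM in untreated Sem (-0.51 ± 0.0627, limma adjusted p = 8.51e-05). TRIB3 had 1.6, 1.54 and 2.33 FPKM with ibrutinib, against 2.54, 3.1 and 2.15 FPKM in untreated Sem (-0.35 ± 0.111, limma adjusted p = 0.025). The CEBPB groups did not overlap, while ibrutinib 3 of TRIB3 lay above untreated 3. PPP1R15A had 10, 11.4 and 11.4 FPKM with ibrutinib, against 7.24, 9.03 and 8.82 FPKM in untreated Sem (0.35 ± 0.0926, limma adjusted p = 0.0101), and ATF5 rose by 0.16. DDIT3 (0.22), CHAC1 (0.21), ATF3 (0.15), SESN2 (0.11), ATF4 (0.03) and CEBPG (-0.13) did not pass, with limma adjusted p from 0.0535 to 0.731. The limma call of TRIB3 was lost without untreated 1 or 2 or ibrutinib 1 or 2 (adjusted p = 0.0543 to 0.0923). Another call was gained without untreated 3 (ATF3, 0.0304), ibrutinib 2 (SESN2, 0.0413) and asparaginase 2 or 3 (CEBPG, 0.0281 to 0.0328). Under TPM scaling (values rescaled to the same sum in every library) 6 rose and 2 fell, with SESN2, DDIT3, CHAC1 and ATF4 added to the rises.

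In Nalm6, ibrutinib alone raised 8 of the 10 genes and lowered 0, where 4.99% of 13237 genes rose and 7.46% fell (12.4% called in all), with a median of 0.405 for the 10 genes and -0.008 for all genes tested. CHAC1 had 7.69, 10.5 and 8.19 FPKM with ibrutinib, against 4.04, 4.98 and 3.7 FPKM in untreated Nalm6 (0.9 ± 0.128, limma adjusted p = 0.00167). DDIT3 had 18.3, 18.6 and 20.4 FPKM with ibrutinib, against 9.22, 11.2 and 9.77 FPKM in untreated Nalm6 (0.86 ± 0.0854, limma adjusted p = 0.000225). Both were about double their untreated means, with ratios of 2.08 and 1.89, and ranked 59 and 73 among all genes. ATF5 had 190, 199 and 194 FPKM with ibrutinib, against 151, 134 and 151 FPKM in untreated Nalm6 (0.41 ± 0.0665, limma adjusted p = 0.00327). SESN2 (0.52), TRIB3 (0.46), CEBPB (0.4), PPP1R15A (0.33) and CEBPG (0.21) rose with limma adjusted p from 0.0188 to 0.0494. ATF3 (0.24, adjusted p = 0.087) and ATF4 (0.11, adjusted p = 0.108) did not pass by limma. ATF4 passed under TPM scaling (0.19), quantile normalization (0.19), the length and GC correction (0.16) and voom (0.18), with limma adjusted p from 0.0109 to 0.019. ATF3 passed under TPM scaling (0.39) and the length and GC correction (0.27), with limma adjusted p of 0.0464 and 0.0316.

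The calls of the smaller rises in Nalm6 depended on single libraries. Leaving out ibrutinib 1, 2 or 3 left 4, 3 and 5 genes called, and leaving out untreated 1, 2 or 3 left 5, 6 and 4. Over all genes the calls numbered 704 to 2223 in the 12 fits without 1 library, against 1647 with all libraries. ATF5, DDIT3 and CHAC1 passed in all of the fits without 1 library. By limma the call of CEBPB was lost in 9 of them, when any single ibrutinib or untreated library, asparaginase 2 or 3, or combination 2 was left out (adjusted p = 0.0533 to 0.146). That of CEBPG was lost when any single ibrutinib library, untreated 1 or untreated 3 was left out (0.0839 to 0.108), and that of TRIB3 without ibrutinib 1 or 2 or untreated 2 or 3 (0.0513 to 0.0731). SESN2 lost it without ibrutinib 1 or 2 or untreated 3 (0.0502 to 0.0735), and PPP1R15A without ibrutinib 2 or 3 or untreated 1 (0.0554 to 0.0676). The calls of DDIT3 and CHAC1 rest on the restored decimal place: with the next most likely one, their changes were -0.08 and -0.1 and did not pass (limma adjusted p = 0.948 and 0.931). For DDIT3 that would put ibrutinib 3 at 42 reads in place of 420, among libraries of 389 and 397 reads.

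The combination was then set against untreated cells. It raised all 10 genes in Sem, where 26.6% of genes rose and 52.9% were called in all (median 1.06 for the 10 genes and 0.022 for all genes tested), and all 10 in Nalm6, where 32.4% of genes rose and 63.7% were called in all (median 1.49 and 0.024). ATF5, which ranked 1 among all genes in Sem, had 94.2, 90.7 and 88.6 FPKM with the combination, against 12.2, 11.1 and 12.6 FPKM in untreated Sem (2.83 ± 0.0452, limma adjusted p = 2.98e-11). CHAC1 had 12, 15.9 and 14.4 FPKM with the combination, against 1.31, 1.71 and 1.92 FPKM in untreated Sem (2.51 ± 0.109, limma adjusted p = 2.68e-08). Every combination library of both genes lay far above the untreated ones. The other changes in Sem were 1.74 for TRIB3, 1.6 for SESN2, 1.43 for DDIT3, 0.7 for PPP1R15A, 0.64 for ATF3, 0.43 for CEBPB, 0.3 for ATF4 and 0.27 for CEBPG, with limma adjusted p of 0.000637 or less.

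In Nalm6, PPP1R15A led and ranked 6 among all genes, with 52.3, 54.3 and 54.7 FPKM with the combination, against 7.02, 6.42 and 7.98 FPKM in untreated cells (2.75 ± 0.0747, limma adjusted p = 6.73e-10). DDIT3 had 62.6, 54.7 and 59.4 FPKM with the combination, against 9.22, 11.2 and 9.77 FPKM in untreated Nalm6 (2.44 ± 0.0854, limma adjusted p = 2.48e-09). The groups lay far apart for both. TRIB3 (2.52), CEBPB (2.08), CHAC1 (1.49), SESN2 (1.49), ATF5 (0.77), ATF3 (0.72) and CEBPG (0.69) rose with limma adjusted p of 1.81e-05 or less. The rise of ATF4 (0.12 ± 0.0418, limma adjusted p = 0.0286) was lost without untreated 1, untreated 2 or combination 2 (adjusted p = 0.068 to 0.106). These comparisons use the same untreated libraries as those of the single drugs. With the next most likely decimal place CHAC1 had a change of 0.49 and did not pass.

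A further comparison asks what ibrutinib added to asparaginase, by setting the combination against asparaginase alone. In Sem it lowered 6 of the 10 genes and raised 0, where 19.8% of genes fell and 18.6% rose (38.3% called in all), with a median of -0.315 for the 10 genes and 0.0093 for all genes tested. TRIB3 had 10.8, 10.7 and 11.5 FPKM with the combination, against 25, 22.9 and 25.3 FPKM with asparaginase (-1.08 ± 0.111, limma adjusted p = 2.36e-05), a ratio of means of 0.45. CEBPB had 23.7, 26 and 27.2 FPKM with the combination, against 46.8, 44.1 and 46 FPKM with asparaginase (-0.81 ± 0.0627, limma adjusted p = 3.24e-06). CHAC1 (12, 15.9 and 14.4 FPKM with the combination, against 23, 22.9 and 26.1 FPKM with asparaginase) fell by 0.73 (limma adjusted p = 0.000356). SESN2 had 11.7, 11.6 and 11.2 FPKM with the combination, against 18.1, 19.4 and 18.7 FPKM with asparaginase (-0.66 ± 0.05, limma adjusted p = 2.91e-06). Every combination library of these 4 genes lay below every asparaginase library. CEBPG fell by 0.36 and ATF5 by 0.24. DDIT3 (-0.12), ATF4 (-0.13), ATF3 (-0.27) and PPP1R15A (0.0) did not pass, with limma adjusted p from 0.0687 to 0.984. PPP1R15A had 13.6, 14.4 and 14.3 FPKM with the combination, against 12.9, 13.4 and 16.3 FPKM with asparaginase, inside the same range. ATF3 passed without untreated 3 (limma adjusted p = 0.0223) and ATF4 without asparaginase 2 (0.0307). Both also passed under quantile normalization, with voom and with both lines in 1 fit, and ATF4 under TPM scaling (limma adjusted p from 0.00685 to 0.041).

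In Nalm6 the same comparison lowered 5 of the 10 genes and raised 1, where 12% of genes fell and 9.8% rose (21.8% called in all), with a median of -0.175 for the 10 genes and -0.0046 for all genes tested. SESN2 had 10.9, 15.2 and 14.1 FPKM with the combination, against 20, 23.4 and 20.8 FPKM with asparaginase (-0.65 ± 0.12, limma adjusted p = 0.00324), and combination 1 was the lowest library. TRIB3 (-0.34), ATF3 (-0.27), CEBPG (-0.21) and ATF4 (-0.14) also fell, with limma adjusted p from 0.0175 to 0.0427. PPP1R15A went the other way, with 52.3, 54.3 and 54.7 FPKM with the combination, against 43.5, 44.5 and 46.3 FPKM with asparaginase (0.26 ± 0.0747, limma adjusted p = 0.0302). DDIT3 (-0.1), ATF5 (-0.1), CEBPB (-0.06) and CHAC1 (-0.25) did not pass, with limma adjusted p from 0.197 to 0.75. Of the 6 calls, that of SESN2 alone held in each of 12 fits without 1 library. Only 1 gene was called without asparaginase 2 or combination 2, while 2 genes were called without asparaginase 3 or combination 3, and 3 genes without asparaginase 1 or ibrutinib 1. By limma TRIB3 lost its call in 9 of the 12 fits, all but those without combination 3, asparaginase 1 or untreated 2 (adjusted p = 0.0502 to 0.142), and ATF4 in 8, all but those without asparaginase 1 or an untreated library (0.0558 to 0.127). ATF3 lost it when combination 2 or 3, any single asparaginase library or ibrutinib 1 was left out (0.0502 to 0.125). PPP1R15A lost it when combination 2 or 3 or any single asparaginase library was left out (0.0539 to 0.082), and CEBPG without combination 2 or 3 or asparaginase 1 or 2 (0.0518 to 0.0642). TRIB3 had its smallest difference, -0.22, without combination 1, which stood apart.

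Set the other way, the combination against ibrutinib alone shows what asparaginase added. In Sem all 10 genes rose, where 4.81% of genes rose and 7.3% fell, 12.1% called in all (median 1.08 for the 10 genes and -0.00049 for all genes tested). ATF5 led again, with 94.2, 90.7 and 88.6 FPKM with the combination, against 13.3, 13.5 and 13.5 FPKM with ibrutinib (2.67 ± 0.0452, limma adjusted p = 5.67e-11), ahead of CHAC1 (2.31) and TRIB3 (2.1). The calls of ATF3 (0.49 ± 0.109, limma adjusted p = 0.0149) and PPP1R15A (0.34 ± 0.0926, adjusted p = 0.035) were lost in 3 and 6 fits without 1 ibrutinib or combination library (adjusted p = 0.0512 to 0.0592 and 0.0608 to 0.113), ATF3 without combination 2 or 3 or ibrutinib 2 and PPP1R15A without each of the 6. In Nalm6, 9 genes rose and 0 fell, where 29.5% of genes rose and 27.6% fell, 57.1% called in all (median 0.78 for the 10 genes and 0.032 for all genes tested). PPP1R15A had 52.3, 54.3 and 54.7 FPKM with the combination, against 8.43, 9.05 and 10.1 FPKM with ibrutinib (2.43 ± 0.0747, limma adjusted p = 3.16e-09), and ranked 2 among all genes. CHAC1, at 13.7 FPKM on average with the combination and 8.81 ± 1.52 FPKM with ibrutinib in Nalm6, rose by 0.59 there, which did not pass with the next most likely decimal place. The ATF4 groups of Nalm6 overlapped, with 212, 217 and 211 FPKM with the combination and 211, 211 and 215 FPKM with ibrutinib (0.01 ± 0.0418, limma adjusted p = 0.912). The ATF4 call depended on scaling, with a difference of 0.11 under TPM scaling and 0.27 under quantile normalization (limma adjusted p = 0.0315 and 0.000148).

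Whether the drugs add up was tested as an interaction, the combination change minus the sum of both single drug changes, on the log2 scale. All 10 values lay below 0 in both lines. In Sem 4 of the 10 genes were called lower and 0 higher, where 0.768% of genes were lower and 0.76% higher, 1.53% called in all (median -0.38 for the 10 genes and 0.0035 for all genes tested). In Nalm6 8 were called lower and 0 higher, where 2.58% were lower and 2.99% higher, 5.58% called in all (median -0.515 and 0.0011). SESN2 was called in both, at -0.77 ± 0.0706 in Sem (limma adjusted p = 0.000626) and -1.17 ± 0.169 in Nalm6 (adjusted p = 0.00348). CHAC1 was also called in both, at -0.94 ± 0.154 in Sem (limma adjusted p = 0.0162) and -1.15 ± 0.181 in Nalm6 (adjusted p = 0.00518).

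Of the factors, ATF5 had an interaction of -0.4 ± 0.0639 in Sem (limma adjusted p = 0.0134) and -0.52 ± 0.0941 in Nalm6 (adjusted p = 0.0107). DDIT3 had -0.34 ± 0.156 in Sem, which did not pass, and -0.96 ± 0.121 in Nalm6 (limma adjusted p = 0.303 and 0.00143), and whether the interaction differed between the lines was not tested. CEBPG (-0.42), ATF3 (-0.51) and ATF4 (-0.25) were called in Nalm6, while CEBPB (-0.46, limma adjusted p = 0.141) and PPP1R15A (-0.07, adjusted p = 0.784) were not. In Sem, CEBPB, CEBPG, ATF3, ATF4 and PPP1R15A lay between -0.16 and -0.42 and did not pass (limma adjusted p from 0.128 to 0.318). TRIB3 had -0.73 ± 0.157 in Sem (limma adjusted p = 0.0488) and -0.8 ± 0.152 in Nalm6 (adjusted p = 0.0133). The Sem call of TRIB3 was lost in 11 of 12 fits without 1 library, all but that without untreated 2 (limma adjusted p = 0.0558 to 0.112). In Nalm6 the call of ATF4 was lost in 9 of 12 such fits, all but those without untreated 3, asparaginase 1 or combination 1 (limma adjusted p = 0.06 to 0.0923). That of ATF3 was lost in 7, those without untreated 3, ibrutinib 1 or 3, asparaginase 2 or 3 and combination 2 or 3 (0.0579 to 0.0777). With the next most likely decimal places, the Nalm6 values of DDIT3 (-0.02) and CHAC1 (-0.15) did not pass. These values use the single drug changes given above and are no separate evidence of them.

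**Figure D3:**
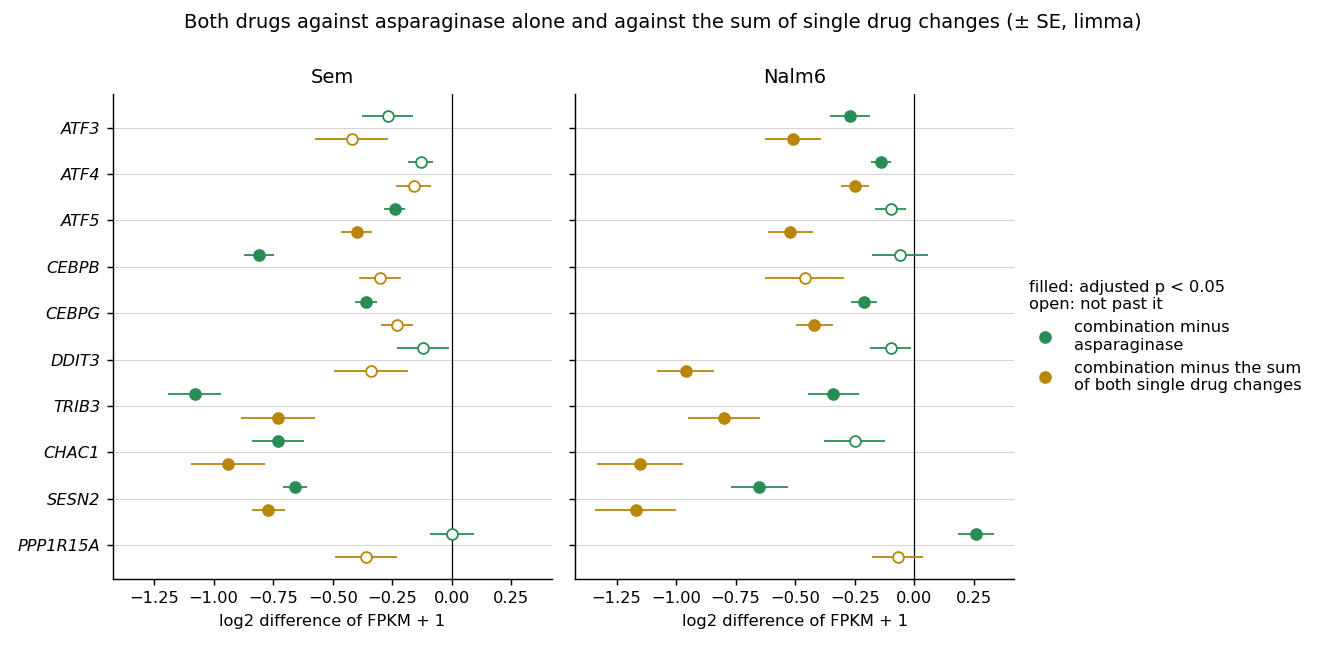
Difference in log2(FPKM + 1) (x axis, ± SE, limma) for each of the 10 genes (y axis) in Sem (left) and Nalm6 (right), as the combination minus asparaginase and as the combination minus the sum of the single drug changes; filled points passed an adjusted p of 0.05. TRIB3 (-1.08) and CEBPB (-0.81) are furthest below asparaginase alone in Sem and SESN2 (-0.65) in Nalm6, where PPP1R15A (0.26) lies above 0.

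The drug effects of the lines were compared directly, Sem minus Nalm6. The asparaginase effect was larger in Sem for 3 genes and smaller for 4, where 17.7% of 15116 genes had a larger effect and 15.7% a smaller one (33.5% called in all). ATF5 had a log2 change of 3.08 in Sem and 0.88 in Nalm6 (difference 2.2 ± 0.0801, limma adjusted p = 6.46e-13), ranking 5 among all genes. CHAC1 had 3.24 in Sem and 1.74 in Nalm6 (1.5 ± 0.178, limma adjusted p = 2.97e-06), or 2.51 with the next most likely decimal place. Both genes had started lower in Sem, and CHAC1 ended higher there while ATF5 did not. PPP1R15A had 0.7 in Sem and 2.5 in Nalm6 (-1.8 ± 0.124, limma adjusted p = 3.54e-09), from untreated levels of 8.36 ± 0.977 FPKM in Sem and 7.14 ± 0.787 FPKM in Nalm6. DDIT3 (-0.99), CEBPB (-0.9) and CEBPG (-0.28) also had smaller effects in Sem, and DDIT3 did not pass with the next most likely decimal place (limma adjusted p = 0.227). TRIB3 (-0.03 ± 0.163), SESN2 (0.12 ± 0.135) and ATF3 (-0.08 ± 0.133) did not pass, with limma adjusted p from 0.519 to 0.896. Adding 1 FPKM shrinks changes from low levels more, so genes that start unequal in the lines are not compared evenly. TRIB3 started lower in Sem, and its ratios of means were 9.4 in Sem and 7.56 in Nalm6. For ATF4 the difference of 0.18 (limma adjusted p = 0.037) was lost in 6 of 24 fits without 1 library, those without Sem untreated 2, Sem asparaginase 1 or 3, Nalm6 untreated 3 or Nalm6 asparaginase 1 or 2 (adjusted p = 0.0548 to 0.115). It was also lost under TPM scaling (0.12), quantile normalization (0.07) and voom (0.1), with limma adjusted p from 0.0832 to 0.367, with no filter (0.0756), and without the libraries that stood apart (0.0844).

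With the combination, 3 genes had a larger and 5 a smaller effect in Sem, where 22.2% of genes had a larger and 18.6% a smaller one (40.8% called in all). ATF5 (2.06) and CHAC1 (1.02) were again larger in Sem and PPP1R15A (-2.06), CEBPB (-1.65), DDIT3 (-1.01), TRIB3 (-0.78) and CEBPG (-0.42) smaller, with limma adjusted p of 0.00081 or less. With the next most likely decimal places CHAC1 had 2.02, and DDIT3 did not pass (limma adjusted p = 0.199). The ATF4 difference of 0.19 (limma adjusted p = 0.0276) was lost in 5 of 24 fits without 1 library (adjusted p = 0.055 to 0.0808), those without Sem untreated 2, Sem combination 2 or 3, Nalm6 untreated 3 or Nalm6 combination 3. It was 0.11 under TPM scaling, -0.02 under quantile normalization and 0.1 with voom, and did not pass there (limma adjusted p from 0.102 to 0.809), with no filter (0.0548) or without the libraries that stood apart (0.052). SESN2 (0.11) and ATF3 (-0.08) did not pass.

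With ibrutinib, 7 genes had a smaller effect in Sem and 0 a larger one, where 6.09% of genes had a smaller and 7.56% a larger one, 13.7% called in all (median -0.375 for the 10 genes and 0.013 for all genes tested). CEBPB fell by 0.51 in Sem and rose by 0.4 in Nalm6 (difference -0.91 ± 0.139, limma adjusted p = 0.000155). TRIB3 fell by 0.35 in Sem and rose by 0.46 in Nalm6 (-0.81 ± 0.163, limma adjusted p = 0.00206). CHAC1 (-0.69), DDIT3 (-0.64) and CEBPG (-0.34) followed, with limma adjusted p from 0.00347 to 0.0124, and with the next most likely decimal places the differences of CHAC1 and DDIT3 were 0.31 and 0.3 and did not pass. ATF3 (-0.08), ATF4 (-0.09) and PPP1R15A (0.03) did not pass. The calls of SESN2 (-0.41, limma adjusted p = 0.0488) and ATF5 (-0.25, adjusted p = 0.0421) were lost in 17 and 10 of 24 fits without 1 library (adjusted p = 0.0513 to 0.133 and 0.0518 to 0.109). The SESN2 call held without Sem ibrutinib 3, Nalm6 ibrutinib 3, Nalm6 untreated 1 and Nalm6 combination or asparaginase 1 or 2, and was lost when any other single library was left out. That of ATF5 was lost without any single ibrutinib library of either line, Sem untreated 1 or 3, Nalm6 untreated 2 or Sem combination 2. With voom on the recovered reads 4 genes were called, those of CEBPB, CEBPG, DDIT3 and TRIB3.

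**Figure D4:**
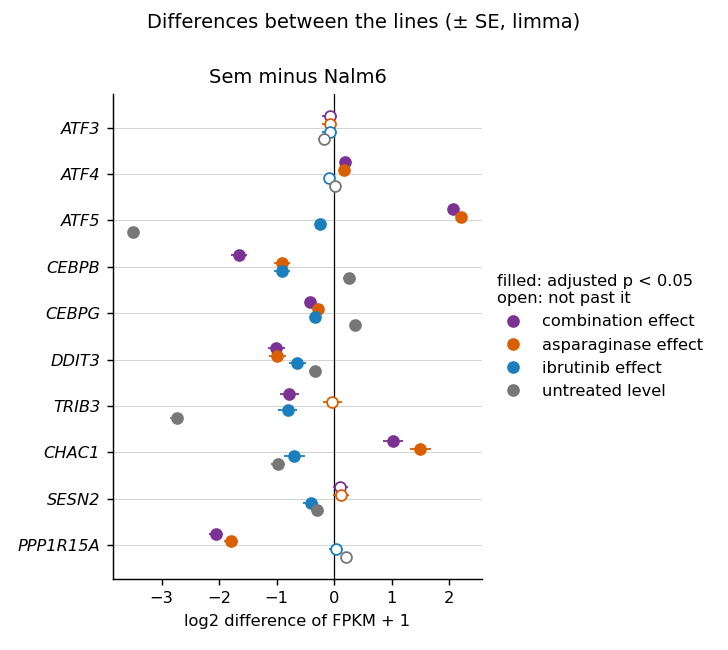
Difference between the lines in log2(FPKM + 1), Sem minus Nalm6 (x axis, ± SE, limma), in the effects of the combination, asparaginase and ibrutinib and in the untreated level, for each of the 10 genes (y axis); filled points passed an adjusted p of 0.05. ATF5 lies at -3.5 for the untreated level and at 2.2 for the asparaginase effect, while PPP1R15A lies at 0.2 and -1.8.

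Known targets of ATF4 outside the 10 genes were followed as a list of 38 genes for amino acid synthesis, transport, tRNA charging and stress, of which 34 could be tested. This list and those below were chosen with earlier results of these data known, so their counts are descriptions and no independent evidence. In Sem, 30 rose and 1 fell with asparaginase (median 0.87), where 11.4% of all genes rose and 15.1% fell. With the combination 31 rose and 2 fell (0.41), where 26.6% and 26.3% did. With ibrutinib 7 rose and 17 fell (-0.085), where 20.3% and 21.3% did, so the share of rises was near that of all genes and the share of falls was larger. In Nalm6, 28 rose and 3 fell with asparaginase (median 0.64), where 28.2% of all genes rose and 28.1% fell. With the combination 20 rose and 7 fell (0.42), where 32.4% and 31.3% did, and with ibrutinib 20 rose and 1 fell (0.22), where 4.99% and 7.46% did. The combination was lower than asparaginase for 28 of 34 in Sem, where 19.8% of all genes were lower, and for 21 of 34 in Nalm6, where 12% were, with 4 higher in each. WARS, the tryptophan tRNA synthetase, rose by 2.42 with asparaginase in Sem and by 2.31 in Nalm6. SLC7A11, the cystine carrier, averaged 8.06 FPKM with asparaginase and 0.717 FPKM without a drug in Sem (log2 change 2.4), and rose by 1.18 in Nalm6. DDIT4, an inhibitor of mTORC1, fell by 0.77 with ibrutinib in Sem and rose by 0.38 in Nalm6, and with asparaginase it rose by 1.18 and 1.72. KLHL24, a ubiquitin ligase adaptor, rose by 1.17 with ibrutinib in Sem, where asparaginase gave 0.09, which did not pass. It rose by 1.54 with asparaginase in Nalm6. ASNS, which makes asparagine, stayed low: it averaged 1.62 ± 0.178 FPKM with asparaginase and 0.299 ± 0.118 FPKM without a drug in Sem (1.02), and 1.57 ± 0.138 and 0.542 ± 0.0505 FPKM in Nalm6 (0.73). ASNS and SLC7A11 reached the 1 FPKM needed for a test only in treated libraries, so their being tested already depended on the drug. Both are among the 34 genes counted above. ALDH18A1, of proline synthesis, fell with asparaginase in both, by 0.2 in Sem and by 0.65 in Nalm6, and the Sem call of ALDH18A1 was lost under TPM scaling (-0.12) and quantile normalization (-0.11, limma adjusted p = 0.109 and 0.124).

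Relatives of the 10 genes moved in both directions. Of 13 relatives tested in Sem, 4 rose and 3 fell with asparaginase, where 26.4% of all genes were called, and of 11 tested in Nalm6, 2 rose and 4 fell, where 56.3% were called. CHAC2, the paralogue of CHAC1, fell with asparaginase, to 16.2 ± 0.924 FPKM, against 23.6 ± 1.75 FPKM in untreated Sem (-0.52), and to 5.19 ± 0.898 FPKM, against 18 ± 2.19 FPKM in untreated Nalm6 (-1.62). CEBPA, a C/EBP factor of myeloid cells, averaged 48.3 FPKM with ibrutinib and 105 FPKM without a drug in Sem (-1.1) and was at 0 in all Nalm6 libraries. TRIB2 rose with ibrutinib in Sem (0.66) while TRIB1 fell (-0.54).

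Upstream of the 10 genes, the list of eIF2 kinases and their partners had 1 of 7 higher and 2 lower with asparaginase in Sem, where 11.4% of all genes rose and 15.1% fell. In Nalm6, 0 of 7 rose and 4 fell, where 28.2% of all genes rose and 28.1% fell. EIF2S1, which encodes the eIF2 subunit that is phosphorylated, fell by 0.2 in Sem and by 0.69 in Nalm6, and the Sem call of EIF2S1 was lost under TPM scaling (-0.11) and quantile normalization (-0.12, limma adjusted p = 0.0717 and 0.0637). Of 6 targets and partners of CHOP, 1 was higher and 0 lower with asparaginase in Sem, where 26.4% of all genes were called, and 3 were higher under TPM scaling and with voom. In Nalm6 3 were higher and 3 lower, where 56.3% of all genes were called. BBC3, which encodes the death protein PUMA, rose by 0.55 in Sem and by 1.03 in Nalm6, while BCL2L11, which encodes BIM, fell by 0.55 in Nalm6 and had -0.01 in Sem, which did not pass. The other branches of the unfolded protein response, which run through ATF6 and XBP1, were followed as 12 genes. With asparaginase 3 rose and 5 fell in Sem, where 11.4% of all genes rose and 15.1% fell. In Nalm6 3 rose and 9 fell, where 28.2% and 28.1% did, and the chaperone gene HSPA5 fell by 1.9. EDEM1 rose with asparaginase in both lines, by 1.04 in Sem and by 1.66 in Nalm6, as did HERPUD1, by 1.46 and 0.8. Both act in the removal of misfolded proteins.

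Finally, the likeness of the 10 genes among themselves was described by the correlation of log2(FPKM + 1) over the 24 libraries, centred within each line. The libraries share their 8 groups, so these values describe the shared group pattern. The 45 pairs had r from 0.410 to 0.978 with a median of 0.884. SESN2 and TRIB3 were the most alike, and each had r of at least 0.986 with the mean of the 10 genes. That mean includes the gene itself, which raises the r of a member but not that of an outside gene. PPP1R15A and ATF5 were the least alike (0.410): PPP1R15A had its closest member in DDIT3 (0.900) and ATF5 in CHAC1 (0.964). ATF4 RNA was closest to CHAC1 (0.941) and had 0.890 with the mean.

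Among all other genes, those with a pattern most like the mean of the 10 were WARS (0.992), INHBE (0.987), STC2 (0.972), RNF41 (0.969) and AARS (0.969). The single genes most like a member were WARS for TRIB3 (0.993), STC2 for SESN2 (0.984), SLC6A9 for CHAC1 (0.982) and ATF4 (0.951), ZCCHC8 for DDIT3 (0.98), RNF187 for CEBPB (0.979), HLA-DOA for PPP1R15A (0.978), JDP2 for ATF5 (0.975), DDIT4 for CEBPG (0.967) and RNF41 for ATF3 (0.949). WARS, AARS, STC2, JDP2 and DDIT4 were on the list of ATF4 targets.

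**Figure D5:**
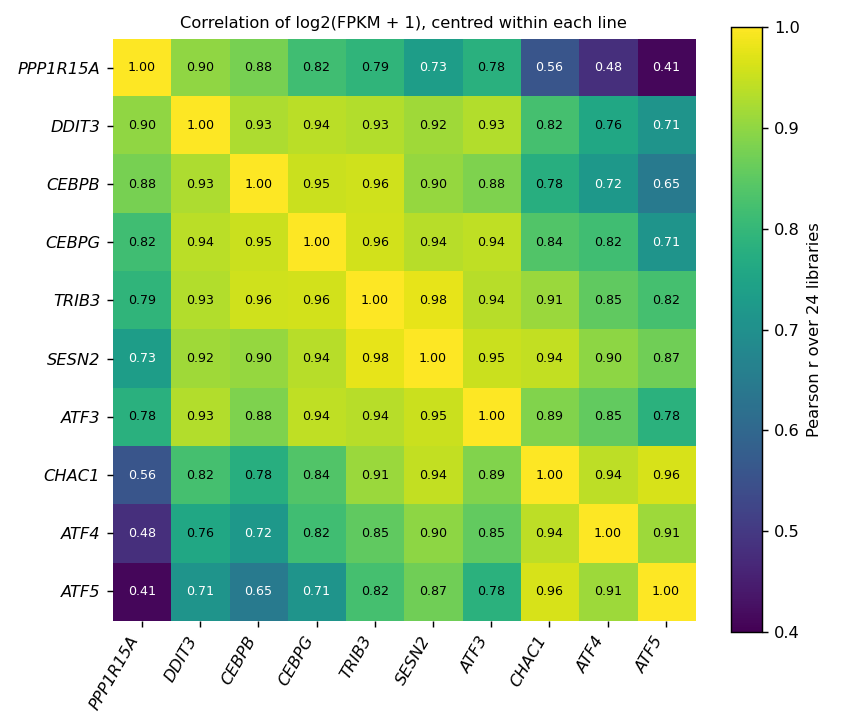
Pearson correlation of log2(FPKM + 1) over 24 libraries, centred within each line, for every pair of the 10 genes (both axes), with the colour and the printed value giving r. PPP1R15A with ATF5 is the lowest pair (0.410) and SESN2 with TRIB3 the highest (0.978).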

How the data were processed

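Per the labels' protocols, RNA was isolated with RNeasy columns and libraries were made with the NEBNext Ultra RNA kit. Per the submitters' processing notes, fastp, STAR and featureCounts were used on hg38 (versions not given in the sources used here). The deposited values are FPKM per gene, and all 299165 of 1 or more (21.2% of 1409640) had lost their decimal point. Because the 206596 intact values were whole multiples of 1 read (largest deviation 9.1e-13 reads), the power of 10 of each damaged value was scored per gene and line over its libraries, with Student t priors (5 degrees of freedom, log10 scales 0.07, 0.1, 0.13 and 0.08 for replicates, ibrutinib, asparaginase and their interaction). In all, 488 values in 263 genes had a posterior under 0.99. The authors' values also hold a factor per library of 0.919 to 1.093, of unstated origin, and it differed between groups. It was larger in every Nalm6 asparaginase or combination library than in untreated Nalm6, so the same share of reads gave a lower FPKM. In untreated Nalm6 1, 8022 of 16930346 reads gave ATF4 189 FPKM, and in asparaginase 1, 9679 of 15394643 reads gave 229 FPKM. Among untreated libraries the factor was smaller in Sem than in Nalm6.

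Testing used limma with an intensity trend (limma 3.58.1, R 4.3.3) for genes that reached 1 FPKM in 3 or more libraries. Values were log2(FPKM + 1), the tests were two-sided, p-values were adjusted over all genes tested (Benjamini-Hochberg), and an adjusted p under 0.05 was a call. Each line was fitted with 12 libraries (8 residual degrees of freedom), and differences between the lines with 24 (16). A change of log2(FPKM + 1) understates the fold of low genes such as ATF3, and of genes low in 1 line such as TRIB3 in Sem. Errors are SD of FPKM or SE of a fitted change. The unit is not counts as deposited, so the tests for counts that had been planned were not run. Restoration and tests were also run on simulated data, with outcomes not given here. The simulations were built from the restored values, so they cannot show errors in those values. Gene positions, exons and overlaps came from GENCODE 29, which matched all 58735 identifiers, and promoter windows from RefSeq (GRCh38.p14). Python 3.11.15, numpy 2.4.6, scipy 1.17.1, pandas 2.3.3 and matplotlib 3.10.9 were used.

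The 10 genes and the lists were chosen with earlier results of these data known. From the lists, the text names ASNS and some of the 3 called genes with the largest rise or fall in each comparison with untreated cells. Alternatives were a pseudocount of 0.1, no filter, TPM scaling, quantile normalization, a length and GC correction, a replicate block, limma-voom on the recovered reads, leaving out libraries, and the next most likely decimal place.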

Additional observations from a re-analysis of the deposited data

Results flagged for a closer look

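Some drug effects differed between the lines by limma's test of the difference, Sem minus Nalm6, with all 24 libraries in 1 fit. Of all genes, 13.7% differed so with ibrutinib, 33.5% with asparaginase and 40.8% with the combination. The difference in log2 change with ibrutinib was -0.25 for ATF5, -0.91 for CEBPB, -0.34 for CEBPG, -0.64 for DDIT3, -0.81 for TRIB3, -0.69 for CHAC1 and -0.41 for SESN2. With asparaginase it was 0.18 for ATF4, 2.2 for ATF5, -0.9 for CEBPB, -0.28 for CEBPG, -0.99 for DDIT3, 1.5 for CHAC1 and -1.8 for PPP1R15A. With the combination it was 0.19 for ATF4, 2.06 for ATF5, -1.65 for CEBPB, -0.42 for CEBPG, -1.01 for DDIT3, -0.78 for TRIB3, 1.02 for CHAC1 and -2.06 for PPP1R15A. The ATF4 differences did not pass under TPM scaling, quantile normalization or voom. No difference of DDIT3 passed with the next most likely decimal place, nor did the ibrutinib difference of CHAC1. The ibrutinib calls of SESN2 and ATF5 were lost in 17 and 10 of 24 fits without 1 library. The 3 effects share the untreated libraries, so they are not separate evidence. With ibrutinib, CEBPB and TRIB3 fell in Sem and rose in Nalm6. No test with a p-value for a sample far from the others was made, because the groups have 3 libraries. Libraries that stood apart were found by the rule on correlations given above.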

How the results depend on the processing

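In comparisons with untreated cells, all 10 genes kept their asparaginase and combination calls in Sem under every alternative run. In Nalm6 the exceptions were CHAC1 with both treatments (next most likely decimal place) and ATF4 with the combination (no filter, and 3 fits without 1 library). The next most likely decimal place changed DDIT3 only in ibrutinib 3 and CHAC1 only in untreated 3. It kept DDIT3 in asparaginase 1 and CHAC1 in untreated 1 and 2, so other places for these doubtful values were not tried. Calls of members with ibrutinib in Nalm6 numbered 4 with no filter (8 as reported), and those of the combination against asparaginase in Nalm6 numbered 2 with no filter (6 as reported). Calls with ibrutinib in Sem numbered 8 under TPM scaling (4 as reported), those of the Sem interaction 7 with voom on the recovered reads (4 as reported), and those of the difference in ibrutinib effect 4 with voom (7 as reported). For these the cause was not tested, except that a test without a filter adjusts over more genes. With the next most likely decimal place the ibrutinib change in Nalm6 was -0.08 for DDIT3 and -0.1 for CHAC1, and the difference between the lines in that effect 0.3 and 0.31. Under quantile normalization the difference in combination effect was -0.02 for ATF4, and the list gene EIF4EBP1 had 0.07 with the combination and ALDH18A1 0.0 with ibrutinib in Sem.

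Leaving out 1 library at a time gave counts of called members of 10 to 10 for asparaginase and for the combination in Sem, and 10 to 10 and 9 to 10 in Nalm6. For ibrutinib they were 3 to 5 in Sem and 3 to 8 in Nalm6, for the combination against asparaginase 6 to 7 and 1 to 6, against ibrutinib 8 to 10 and 9 to 9, and for the interaction 3 to 4 and 6 to 8. Between the lines they were 6 to 7 (asparaginase), 7 to 8 (combination), 5 to 7 (ibrutinib) and 5 to 9 (untreated). Calls over all genes moved too, to 704 to 2223 for ibrutinib in Nalm6 (1647 as reported), 1979 to 2888 for the combination against asparaginase there (2886) and 73 to 374 for the Sem interaction (205). Of 1836 calls of single members in these fits, 1694 were kept, 142 were lost and 15 others were gained. Of the 124 calls of single members as reported, 19 were lost with no filter and 12 under the next most likely decimal place, with 0 gained. TPM scaling lost 8 and gained 12, quantile normalization lost 8 and gained 10, the replicate block lost 9 and gained 2, voom lost 7 and gained 7, the length and GC correction lost 2 and gained 7, and a pseudocount of 0.1 and dropping the 3 Nalm6 libraries that stood apart lost 3 and gained 1 each. TRIB3 with ibrutinib in Sem did not pass with no filter (limma adjusted p = 0.0663) or after the length and GC correction (0.108).

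Replicate numbers were not stated to pair libraries, and same-numbered libraries deviated together in 1 of 18 pairs in Sem and 5 of 18 in Nalm6 (r over 0.1; range -0.028 to 0.11 and -0.19 to 0.38). With a replicate block, 7 members were called with ibrutinib in Nalm6, 4 in the combination against asparaginase there and 5 in untreated cells between the lines. The block kept 115 of the 124 calls of single members.

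The share of all calls that were higher moved with scaling in Nalm6, for ibrutinib 40.1% as reported, 70.4% under TPM scaling, 55.4% under quantile normalization and 64.8% with voom. For asparaginase it was 50.2%, 66.6% under TPM scaling and 63.9% with voom, and for the combination 50.9%, 64.6% and 62.3%. TPM scaling shifted the median of all genes by 0.15 and 0.17 in these last comparisons (voom by 0.13 and 0.14), against changes of 0.25 and 0.12 for ATF4 as reported. For the combination against ibrutinib it was 51.6% and 61.8% under TPM scaling, and for the interaction 53.7%, 34.8% and 32% with voom. In Sem it was 48.8% and 65.8% under TPM scaling for ibrutinib, 43%, 70.1% and 57.8% with voom for asparaginase, 50.3% and 62.9% under TPM scaling for the combination, and 49.8%, 16.6%, 37.5% under quantile normalization and 30.7% with voom for the interaction. Between the lines it was 53% and 41% with voom for asparaginase and 54.4% and 42.8% for the combination. Planned tests with edgeR and DESeq2 were not run, since the deposited values are not counts. Voom was chosen after the data were seen. In Sem, depth limits the lowest values, with 46 to 65 reads of CHAC1 and 59 to 109 of ATF3 in untreated libraries and 85 to 127 of TRIB3 with ibrutinib.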
